A study of Homo sapiens with 22 samples.

Results

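The MHC class II genes and CIITA were taken from RNA-seq of the human acute myeloid leukaemia cell lines MOLM-13 and NB4. The 10 genes, CIITA, CD74, HLA-DRA, HLA-DRB1, HLA-DPA1, HLA-DPB1, HLA-DQA1, HLA-DQB1, HLA-DMA and HLA-DMB, were chosen by symbol among the 20411 genes of each table, and all 10 have a row for both lines. In the GENCODE annotation (hg38), the 8 HLA genes lie on chromosome 6 between 32439878 (HLA-DRA) and 33089696 (HLA-DPB1), CD74 at chr5:150401637-150412969 and CIITA at chr16:10866222-10943021. MOLM-13 carries an MLL rearrangement, and NB4 is a promyelocytic line. Cells were given 2 μM FP54, a degrader of the m6A demethylase FTO, or the solvent DMSO for 48 h, with 3 libraries for each treatment and line. These 12 of the 22 samples were used, and the other 10, from m6A-seq and polysome-seq, were not analysed here. The labels do not say whether replicates were separate cultures, so p-values measure the spread between these libraries.

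MHC class II molecules are pairs of an alpha and a beta chain that present peptides taken up from outside the cell to helper T cells, and most cells other than professional antigen-presenting cells make few of them. CD74, the invariant chain, guides new pairs to the endosome and keeps their groove closed until HLA-DM exchanges its last fragment for a peptide. CIITA is the coactivator that these genes share: it does not bind DNA itself but is held at their promoters by RFX, NF-Y and CREB proteins, and interferon-gamma can induce it.

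Promoter stretches are shown because these genes share the elements at which CIITA is held. RefSeq entries (GRCh38.p14, 250 bases before to 50 after the start) were found for 8 of the 10 genes, all but HLA-DRA and CIITA. On both strands, AGNNACNGA, a stretch of the X box which RFX binds, and ATTGG, the core that NF-Y binds, were searched with letters chosen after these promoters had been read. The matches do not overlap and are in capitals, and every stretch is written 5′ to 3′ on the strand of its gene.
HLA-DRB1 (chr6:32589880-32589937, minus strand): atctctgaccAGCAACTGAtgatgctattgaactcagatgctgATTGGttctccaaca
HLA-DQA1 (chr6:32637294-32637352, plus strand): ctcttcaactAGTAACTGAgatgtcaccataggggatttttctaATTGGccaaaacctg
HLA-DQB1 (chr6:32666731-32666788, minus strand): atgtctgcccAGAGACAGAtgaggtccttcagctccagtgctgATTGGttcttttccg
HLA-DMA (chr6:32953162-32953220, minus strand): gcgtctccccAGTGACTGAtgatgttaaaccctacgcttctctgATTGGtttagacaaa
HLA-DMB (chr6:32941068-32941126, minus strand): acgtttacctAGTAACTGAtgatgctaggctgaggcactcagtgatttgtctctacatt
CD74 (chr5:150412949-150413003, minus strand): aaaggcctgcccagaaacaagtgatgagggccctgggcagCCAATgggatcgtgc

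The first 4 stretches, of HLA-DRB1, HLA-DQA1, HLA-DQB1 and HLA-DMA, hold both elements with 24 or 25 bases between them, and they are 4 of the 8 genes with an entry. Among all 35116 promoter entries, 0.493% hold such a pair, AGNNACNGA on the strand of the gene and ATTGG on either strand at most 40 bases behind it, 15.3% hold AGNNACNGA and 34.6% hold ATTGG. The HLA-DMB stretch holds AGNNACNGA alone, and the rest of its entry holds an ATTGG on the other strand that makes no such pair. The CD74 stretch holds ATTGG on the other strand, read here as CCAAT. HLA-DPB1 holds ATTGG alone, and of 2 entries of HLA-DPA1 one holds AGNNACNGA alone and the other neither. A match of letters is a description, and its use in these cells was not measured.

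The values are RPKM, reads scaled by gene length and by the library total, so levels can be set beside each other between genes. Read numbers were recovered from them, and the library totals that they imply ran from 5829730 (FP54 replicate 2) to 19191055 in MOLM-13 and from 10595647 (FP54 replicate 1) to 22344266 in NB4. Limits from read numbers cover counting error only. Each line carried its own markers. HOXA9, a homeobox gene that MLL fusions drive, was at 21.3 ± 2.14 RPKM (SD, n = 3) in MOLM-13 with DMSO and at 0.234 ± 0.0799 (SD, n = 3) in NB4, and HGF was at 0.10 ± 0.0236 and 3.32 ± 0.839 (SD, n = 3).

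FP54 replicate 1 of NB4 stood apart. In that library 18 autosomal genes had at least 10 reads while the other 2 FP54 libraries of NB4 each had at most 15% of its RPKM, and 3 of the 18 were HLA-DRA, HLA-DRB1 and HLA-DQB1. Counted in the same way within its own line and treatment, the number was 0 in the other FP54 libraries of NB4, at most 3 in its DMSO libraries and at most 6 in the MOLM-13 libraries. Some of the 18 are abundant in MOLM-13, such as LAMP5 with 3091 reads in its FP54 replicate 1 and 22 in that of NB4, and others are nearly absent there, such as TGFBI with 2 and 48 reads in the same libraries. HLA-DRA, HLA-DRB1 and HLA-DQB1 had 21, 13 and 16 reads in that NB4 library, 0 to 2 in each DMSO library of NB4, and 85, 15 and 195 in FP54 replicate 1 of MOLM-13. The limit was not set against DMSO, and CCR2, one of the 18, had 89 reads in that library and 88, 64 and 94 in the deeper DMSO libraries. These limits were chosen after the values had been seen, and the source of those reads was not tested.

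With DMSO, MOLM-13 held a high level of CD74 and low levels of the HLA chains. CD74 came first at 50.7 ± 1.83 RPKM (SD, n = 3), and HLA-DRA and HLA-DQB1 followed together, at 1.67 ± 0.331 and 1.67 ± 0.176. HLA-DMA at 0.873 ± 0.326, CIITA at 0.253 ± 0.0426 and HLA-DRB1 at 0.116 ± 0.0192 came next (SD, n = 3), each apart from its neighbours in every DMSO library. This order rests on the annotated exon length, 22553 bases for CIITA and 2520 for HLA-DMA. CIITA had more reads than HLA-DMA, with 88, 111 and 87 against 26, 51 and 33. HLA-DMB and HLA-DPA1 overlapped at 0.0478 ± 0.0162 and 0.0420 ± 0.0215, and HLA-DPB1 and HLA-DQA1 rested on 0 to 4 reads per library. In these values HLA-DRA was above HLA-DRB1 and HLA-DQB1 above HLA-DQA1. HLA-DRB3 and HLA-DRB4, other DR beta chain genes, were not analysed here, so the DR chains were not compared in full. The beta chain genes are highly polymorphic and have near-identical copies, HLA-DPA1 and HLA-DPB1 overlap on opposite strands, and so do HLA-DQB1 with HLA-DQB1-AS1, HLA-DMA with BRD2 and CIITA with DEXI. On the same strand, HLA-DPB1 overlaps RPL32P1, and HLA-DMA, HLA-DMB and CIITA overlap annotated genes without a symbol. The counting's strand setting is not given in the sources used here, and the effect of these features on the levels was not tested.

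NB4 with DMSO held far fewer class II reads. CD74 was at 1.31 ± 0.415 RPKM (SD, n = 3), HLA-DMA at 0.0989 ± 0.0117, HLA-DRA at 0.0505 ± 0.0237 and CIITA at 0.0262 ± 0.00482 (SD, n = 3). This order held in every DMSO library, although HLA-DRA rested on 1 or 2 reads and HLA-DMA on 5 or 6. The 8 HLA genes together had 9, 9 and 7 reads in the DMSO libraries, against 207, 234 and 233 in those of MOLM-13. HLA-DRB1 and HLA-DQA1 had 0 reads in all 3, and a count of 0 allows up to 3 reads, which is 0.0471 RPKM for HLA-DRB1 in DMSO replicate 1. The lines are in separate tables, so no test was made between their levels. In bulk RNA, fewer cells that express a gene and less RNA per cell cannot be told apart.

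**Figure D1:**
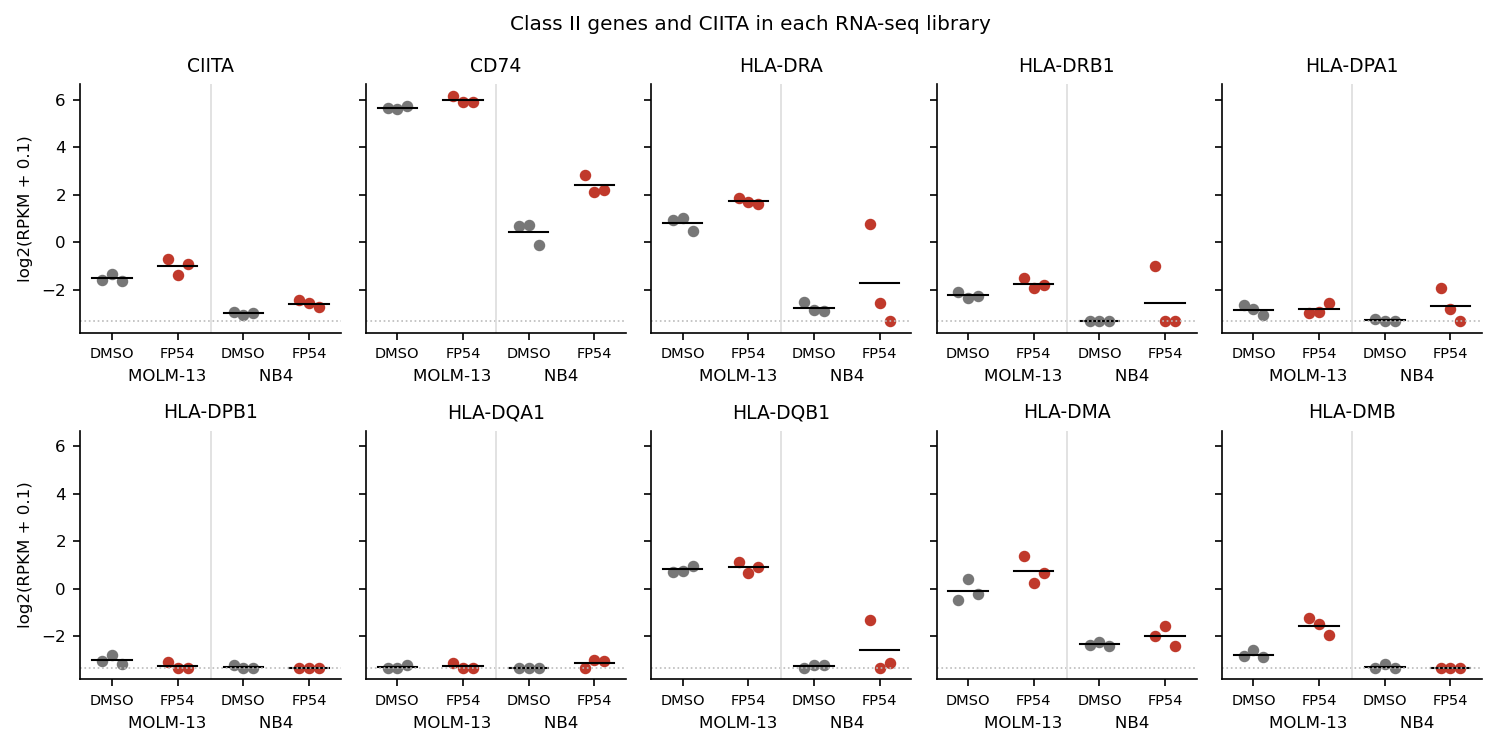
Levels of the 10 genes as log2(RPKM + 0.1) on the y axis, for DMSO (grey) and FP54 (red) in MOLM-13 and NB4. Each point is a library, the bar is the mean of 3, and the dotted line is a value of 0 RPKM. CD74 is the highest of the 10 in every library, and HLA-DRA, HLA-DQB1 and HLA-DMA are the HLA genes that reach 1 RPKM in MOLM-13.

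In MOLM-13, FP54 was compared with DMSO, and HLA-DRA rose. HLA-DRA, the alpha chain shared by all DR molecules, was at 1.80, 1.92 and 1.30 RPKM in DMSO replicates 1 to 3 and at 3.56, 3.17 and 2.94 RPKM in FP54 replicates 1 to 3. All FP54 libraries lay above all DMSO libraries. The log2 fold change was 0.92 (standard error, SE, 0.20, adjusted p = 0.0134 by limma on log2(RPKM + 0.1)). It was 0.76 without DMSO replicate 3 (limma adjusted p = 0.0715) and 0.85 with FP54 replicate 1 left out (limma adjusted p = 0.0697), so the call needed both libraries. In these 2 fits the number of all genes called higher also fell, from 895 to 316 and to 256. HLA-DRA was the only gene called of the 4 tested, those with a mean of at least 1 RPKM, and the share called higher among all 9710 genes tested was 9.22%. A call needed an adjusted p below 0.05 and a change of 0.5 or more on the log2 scale.

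CD74, the invariant chain, was at 50.1, 49.3 and 52.8 RPKM with DMSO and at 71.8, 59.2 and 60.7 RPKM with FP54. Its libraries did not overlap, and the log2 fold change of 0.33 (SE 0.13, limma adjusted p = 0.107) did not pass. HLA-DQB1, the DQ beta chain, was at 1.56, 1.58 and 1.87 RPKM and at 2.08, 1.47 and 1.82 RPKM. The groups overlapped, with a log2 fold change of 0.09 (SE 0.20, limma adjusted p = 0.792) that was −0.02 without FP54 replicate 1.

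HLA-DMA and HLA-DMB form HLA-DM, which loads peptides. HLA-DMA was at 0.624, 1.24 and 0.755 RPKM with DMSO and at 2.50, 1.09 and 1.48 RPKM with FP54. DMSO replicate 2 lay above FP54 replicate 2, and the log2 fold change of 0.85 (SE 0.33, limma adjusted p = 0.0923) did not pass. HLA-DMA met the filter only through its FP54 libraries. Without DMSO replicate 2 the log2 fold change was 1.11 (limma adjusted p = 0.0396), and without FP54 replicate 2, the library of lowest depth, it was also 1.11 (adjusted p = 0.0420 from limma). Other fits lowered it, to 0.55 without FP54 replicate 1 (adjusted p = 0.335 from limma) and 0.67 without DMSO replicate 1 (adjusted p = 0.260). With a pseudocount of 1 it was 0.50 (adjusted p = 0.0958 from limma). HLA-DMB was under the filter, at 0.0393, 0.0665 and 0.0375 RPKM with DMSO (3, 5 and 3 reads) and at 0.328, 0.260 and 0.162 RPKM with FP54 (29, 7 and 9 reads). Its libraries did not overlap, and the exact permutation p was 0.1, two-sided, which is the smallest that 3 libraries against 3 allow. With no filter, HLA-DMB had a log2 fold change of 1.22 (adjusted p = 0.0224 from limma), and with limma-voom on the recovered reads 2.29 (adjusted p = 0.00819), where 4.56% and 10.2% of the genes tested were called higher.

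CIITA, the coactivator, was at 0.236, 0.302 and 0.222 RPKM with DMSO (88, 111 and 87 reads) and at 0.518, 0.289 and 0.428 RPKM with FP54 (224, 38 and 116 reads). FP54 replicate 2 fell within the DMSO values and the other FP54 libraries lay above them, with an exact permutation p of 0.2. Limma-voom on the recovered reads gave a log2 fold change of 0.75 (adjusted p = 0.0517), and limma with no filter 0.51 (adjusted p = 0.207). HLA-DRB1, the main DR beta chain, was at 0.137, 0.0995 and 0.112 RPKM with DMSO and at 0.254, 0.167 and 0.189 RPKM with FP54, on 3 to 15 reads per library. Its libraries did not overlap (exact permutation p = 0.1). The log2 fold change of HLA-DRB1 was 0.48 with no filter (adjusted p = 0.128 from limma) and 0.85 with limma-voom (adjusted p = 0.199), and neither passed. HLA-DPA1 had 6, 4 and 2 reads with DMSO and 3, 1 and 5 with FP54, HLA-DPB1 2, 4 and 1 and then 2, 0 and 0, and HLA-DQA1 0, 0 and 1 and then 2, 0 and 0. A change in these 3 genes was not detectable at this depth. Of the 6 genes under the filter, HLA-DRB1 and HLA-DMB were above DMSO with no overlap, and 10.1% of all 6578 genes under the filter with a read were so.

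In NB4, CD74 rose with FP54. It was at 1.52, 1.58 and 0.831 RPKM in DMSO replicates 1 to 3 and at 7.03, 4.29 and 4.56 RPKM in FP54 replicates 1 to 3. Every FP54 library lay above every DMSO library, and the FP54 mean was 405% of the DMSO mean. The log2 fold change was 1.95 (SE 0.24, limma adjusted p = 9.36e-05). Without FP54 replicate 1, which stood apart, it was 1.73 (adjusted p = 0.000900 from limma). CD74 was the only gene of the 10 that passed the filter in NB4, and 19.1% of the 9853 genes tested were called higher. Median-ratio scaling moved the median log2 fold change of all genes from 0.07 to −0.13 and turned the split from 1884 higher and 1057 lower to 1201 higher and 2013 lower, and the log2 fold change of CD74 was 1.76 under it (adjusted p = 8.94e-05 from limma).

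CIITA in NB4 was at 0.0301, 0.0208 and 0.0278 RPKM with DMSO (14, 10 and 14 reads) and at 0.0837, 0.0686 and 0.0509 RPKM with FP54 (20, 18 and 15 reads). The libraries did not overlap (exact permutation p = 0.1), but this held for 53.2% of the 7937 genes under the filter with a read. The mean of 400 olfactory receptor genes, whose products sense odours in the nose and which stand here for a general low signal, was 0.00175, 0.00278 and 0.00387 RPKM with DMSO and 0.0509, 0.0544 and 0.0541 RPKM with FP54 in NB4. CIITA therefore lay above that level in every DMSO library, and in FP54 replicate 3 it was no longer above it. In MOLM-13 the same mean stayed between 0.00381 and 0.00833 RPKM, far below CIITA. Limma-voom on the recovered reads gave CIITA in NB4 a log2 fold change of 1.32 (adjusted p = 0.00449), in a fit that called 36.8% of 14671 genes higher. With no filter it was 0.41 (adjusted p = 0.0324 from limma), under the minimum fold, where 30% of 17790 genes were called higher. The part of the general low signal in these values was not tested.

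**Figure D2:**
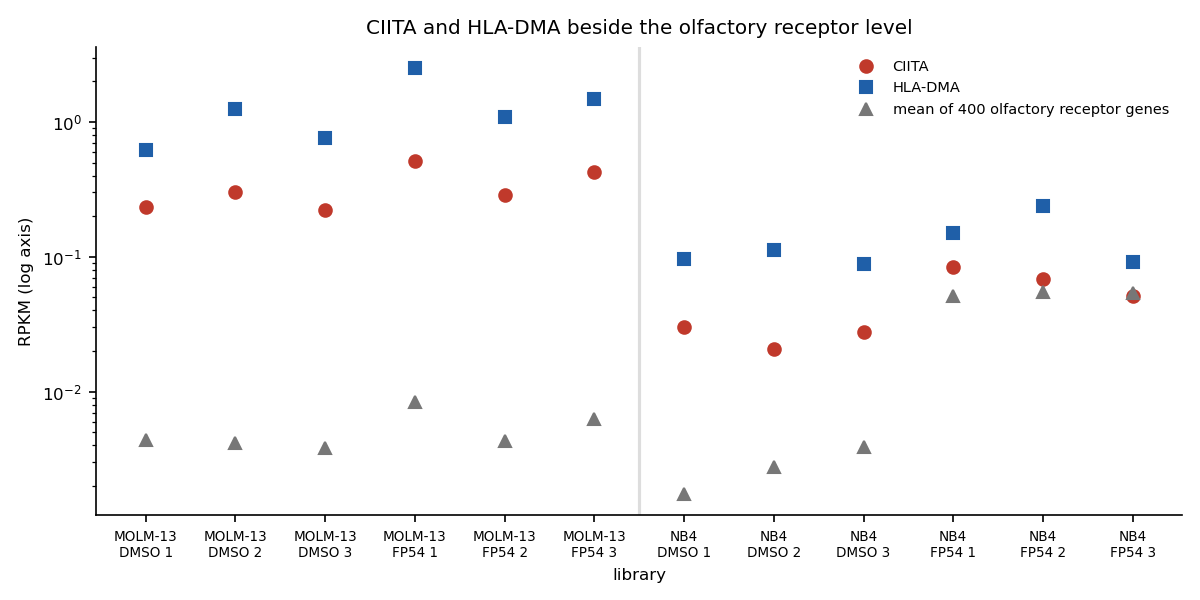
RPKM of CIITA (circles) and HLA-DMA (squares) and the mean of 400 olfactory receptor genes (triangles) in each of the 12 libraries, on a log axis. The olfactory receptor mean is at or below 0.00833 RPKM in MOLM-13 and in NB4 with DMSO, and reaches 0.0509 to 0.0544 RPKM in NB4 with FP54, where CIITA is at 0.0509 to 0.0837 RPKM.

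The HLA chains of NB4 were seen mainly in FP54 replicate 1. HLA-DRA had 2, 1 and 1 reads with DMSO and 21, 1 and 0 with FP54, HLA-DRB1 0, 0 and 0 and then 13, 0 and 0, and HLA-DQB1 0, 1 and 1 and then 16, 0 and 1. HLA-DPA1 had 1, 0 and 0 reads and then 10, 3 and 0. In each of these genes FP54 replicate 1 had the highest value, and the other FP54 libraries had 3 reads or fewer. HLA-DMA had 5, 6 and 5 reads with DMSO and 4, 7 and 3 with FP54, while HLA-DMB, HLA-DPB1 and HLA-DQA1 had at most 2 reads in any library. A change in HLA-DMA or HLA-DMB was not detectable at this depth. CIITA was the only gene of the 9 under the filter whose FP54 libraries all lay above its DMSO libraries. Of all 7937 genes under the filter with a read in NB4, 53.2% did so.

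**Figure D3:**
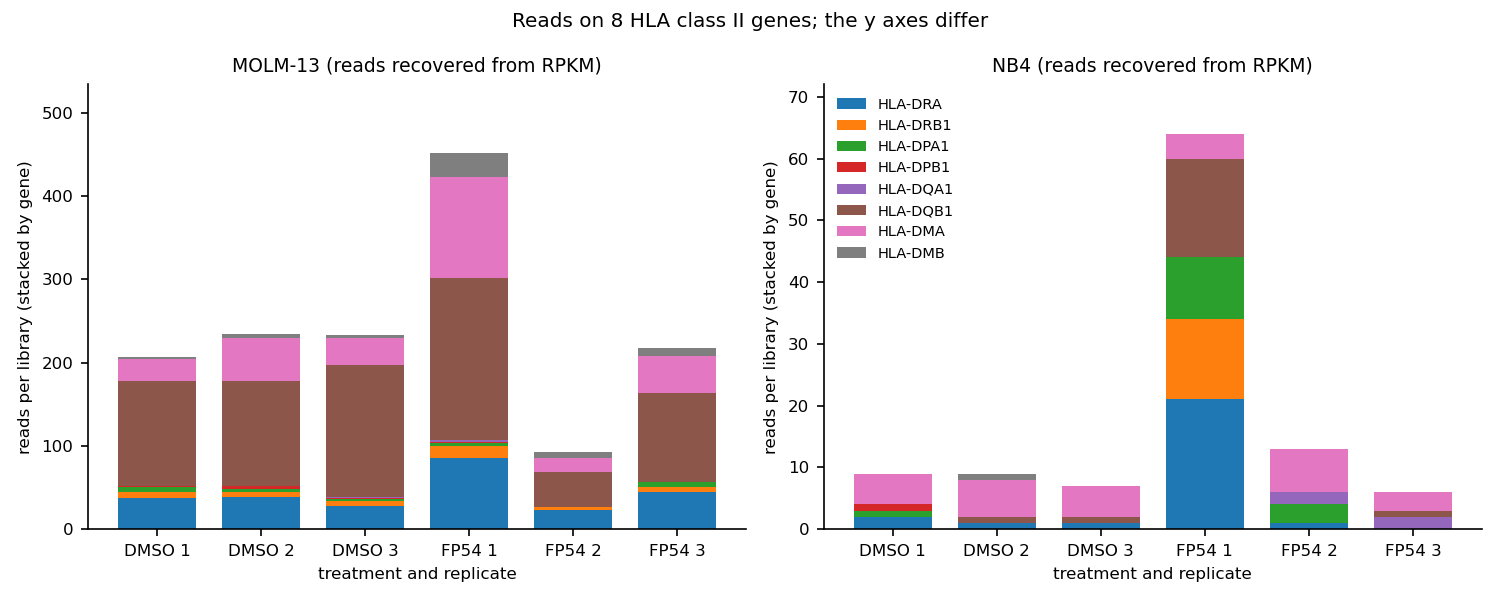
Reads on the 8 HLA class II genes, stacked by gene (colours), in each DMSO and FP54 library of MOLM-13 (left) and NB4 (right), with y axes of different scale. In NB4 the total is 64 in FP54 replicate 1 and 6 to 13 in every other library, and in MOLM-13 it runs from 92 in the shallowest library to 452. Reads are not scaled by depth, and in NB4 every FP54 library is shallower than every DMSO library.

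The FP54 effect on CD74 differed between the lines. In 1 limma model of the 12 libraries, the log2 fold change in NB4 exceeded that in MOLM-13 by 1.62 (SE 0.30, limma adjusted p = 0.00221), and a difference, which needed only an adjusted p below 0.05, was called for 14.2% of the 8849 genes tested. Without FP54 replicate 1 of both lines it was 1.49 (adjusted p = 0.00898 from limma). CD74 was the only gene of the 10 tested in both lines. With no filter, the fitted difference of HLA-DMB was −1.27 (adjusted p = 0.00138 from limma, where 3.69% of the genes tested were called in that direction). HLA-DMB had 0 or 1 read in every NB4 library, so no change could be measured there and this value is not read as a difference between the lines.

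Genes of the class II route outside the 10 were taken from lists. Of the 7 factors that bind class II promoters, all tested in both lines, RFX5 was called lower in MOLM-13, where 8.95% of the genes tested were called lower. In NB4, where 10.7% were called lower, CREB1 alone had an adjusted p below 0.05 from limma (0.0194), and its log2 fold change of 0.38 was under the minimum fold. The median log2 fold change of the list was −0.12 in MOLM-13 and −0.01 in NB4, beside 0.00326 and 0.0702 over all genes tested. RFX5, the subunit of RFX that contacts the X box, was at 6.34, 3.56 and 6.90 RPKM with DMSO and at 1.64, 2.67 and 2.92 RPKM with FP54 in MOLM-13. Its libraries did not overlap, with a log2 fold change of −1.17 (SE 0.28, limma adjusted p = 0.0201). The call was lost with no filter (adjusted p = 0.0594 from limma) and without DMSO replicate 1 (−1.05, adjusted p = 0.0575), DMSO replicate 3 (−0.99, adjusted p = 0.0839) or FP54 replicate 1 (−0.92, adjusted p = 0.0912). In NB4, RFX5 was at 18.4 ± 0.594 RPKM with DMSO and 17.1 ± 0.694 with FP54 (SD, n = 3). RFXANK, with the highest DMSO mean of the list, was at 24.6 and 23.4 RPKM in MOLM-13 and at 18.8 and 16.5 RPKM in NB4. In NB4 that rank held on the mean only, as RFX5 lay above RFXANK in DMSO replicates 1 and 3.

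Of 6 genes of the interferon-gamma route, all tested in both lines, 1 was called higher in MOLM-13 and 2 in NB4, where 9.22% and 19.1% of all genes tested were. The median log2 fold changes were 0.39 and 0.43, beside 0.00326 and 0.0702 over all genes tested. JAK1, a kinase bound to the interferon-gamma receptor, was at 9.05, 10.2 and 7.57 RPKM with DMSO and at 17.0, 13.7 and 15.8 RPKM with FP54 in MOLM-13. In NB4 it went from 7.63, 5.27 and 7.41 RPKM to 11.1, 10.5 and 10.8 RPKM. The groups did not overlap in either line, and JAK1 rose by 0.79 (adjusted p = 0.0102 from limma) and 0.69 (adjusted p = 0.00176 from limma) on the log2 scale. With median-ratio scaling the NB4 value was 0.49, under the minimum fold. The MOLM-13 call was lost without DMSO replicate 3 (0.68, adjusted p = 0.0544 from limma) or FP54 replicate 1 (0.72, adjusted p = 0.0553). SOCS1, which restrains this signal, rose in NB4 from 0.893 ± 0.293 to 1.71 ± 0.260 RPKM (SD, n = 3, adjusted p = 0.00545 from limma), but not under quantile normalization (0.37, adjusted p = 0.159), and was at 4.11 RPKM in both groups of MOLM-13. In NB4 it met the filter only through its FP54 libraries. IFNGR2, a receptor chain with the highest mean of the list in both lines, went from 35.5 ± 6.46 to 53.7 ± 12 RPKM (SD, n = 3) in MOLM-13 with overlapping libraries. In DMSO replicate 1 of MOLM-13, IFNGR1 lay above it, at 33.6 against 31.2 RPKM. In NB4, IFNGR2 went from 19.7 ± 1.12 to 25.5 ± 2.56 RPKM (SD, n = 3), a log2 fold change of 0.37 (adjusted p = 0.00839 from limma) that was under the minimum fold.

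Of 4 regulators that act on CIITA itself, 3 were tested in MOLM-13 and 2 in NB4, with median log2 fold changes of 0.16 and −0.39. The medians over all genes tested were 0.00326 and 0.0702. The only call was IRF8, lower in MOLM-13, where 8.95% of all genes tested were called lower. SPI1, the myeloid factor PU.1, was at 155 ± 11.9 and 173 ± 12.6 RPKM in MOLM-13 and at 80.2 ± 13.4 and 60.5 ± 2.06 RPKM in NB4 (SD, n = 3). In NB4 its groups did not overlap, and the log2 fold change of −0.39 (adjusted p = 0.0125 from limma) was under the minimum fold. IRF8, a factor of monocyte and dendritic cell development, fell by 0.52 on the log2 scale in MOLM-13 (adjusted p = 0.0481 from limma), from 30.5, 24.8 and 27.3 RPKM to 15.7, 20.0 and 22.2 RPKM. The call was lost with a pseudocount of 1 (−0.50), under quantile normalization (−0.50) and with no filter (adjusted p = 0.0791 from limma). It was also lost without FP54 replicate 1 (−0.38, adjusted p = 0.186 from limma), DMSO replicate 1 (−0.44, adjusted p = 0.177), DMSO replicate 3 (−0.52, adjusted p = 0.145) or FP54 replicate 2 (−0.55, adjusted p = 0.0583).

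Endosomal enzymes cut the invariant chain and the antigens. Of 9 such genes, 7 were tested in each line, and 3 were called higher in each, with CTSB in both, against 9.22% (MOLM-13) and 19.1% (NB4) of all genes tested. The median log2 fold changes were 0.31 in MOLM-13 and 0.45 in NB4, beside 0.00326 and 0.0702 over all genes tested. CTSB, the cysteine protease cathepsin B, was at 49.1, 82.3 and 55.1 RPKM with DMSO and at 173, 127 and 110 RPKM with FP54 in MOLM-13, and it went from 7.27 ± 0.593 to 11.4 ± 0.571 RPKM (SD, n = 3) in NB4. The log2 fold changes were 1.14 (adjusted p = 0.00891 from limma) and 0.64 (adjusted p = 0.000347 from limma), and with median-ratio scaling the NB4 value was 0.44, under the minimum fold. CTSD, an aspartic protease, rose by 1.27 in MOLM-13 (adjusted p = 0.00168 from limma), and CTSH, an aminopeptidase, by 0.99 (adjusted p = 0.00495 from limma). In NB4, CTSH was the most abundant of the list with DMSO and went from 13.1 ± 1.42 to 10.3 ± 0.277 RPKM (SD, n = 3), a log2 fold change of −0.34 that was under the minimum fold. CTSL, a protease that can trim the invariant chain, rose by 0.80 in NB4 (adjusted p = 0.000395 from limma), and SPPL2A, which clears the last membrane fragment of CD74, by 0.94 (adjusted p = 0.000401 from limma). Over the alternatives with all libraries, the lowest values were 0.51 for CTSL and 0.52 for SPPL2A, just over the minimum fold and still called. CTSS, the main enzyme that cuts the invariant chain in antigen-presenting cells, was at 20.9 ± 1.77 and 23.5 ± 3.58 RPKM in MOLM-13 and at 6.70 ± 0.658 and 7.70 ± 0.254 in NB4 (SD, n = 3), with no call. IFI30, the reductase that opens disulfide bonds of antigens, is named after its values were seen. It was under the filter, and in NB4 it went from 0.0413, 0.02 and 0.0382 RPKM to 1.29, 1.36 and 1.37 RPKM (exact permutation p = 0.1). In MOLM-13, IFI30 went from 0.335, 0.523 and 0.467 RPKM to 1.09, 0.951 and 0.603 RPKM (exact permutation p = 0.1). Of all genes under the filter with a read, 53.2% in NB4 and 10.1% in MOLM-13 were likewise above DMSO with no overlap.

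Of the 3 co-stimulatory genes, CD86 was tested and called higher in both lines, where 9.22% (MOLM-13) and 19.1% (NB4) of all genes tested were. CD86, a ligand that T cells need beside a class II molecule, was at 1.08, 1.16 and 1.02 RPKM with DMSO and at 4.01, 4.30 and 3.54 RPKM with FP54 in NB4. The groups were far apart, with a log2 fold change of 1.77 (SE 0.12, limma adjusted p = 2.32e-06). In MOLM-13 it was at 23.1, 37.4 and 27.4 RPKM and at 46.2, 53.2 and 36.6 RPKM, and DMSO replicate 2 lay above FP54 replicate 3. The log2 fold change there was 0.64 (adjusted p = 0.0481 from limma), and the call was lost without DMSO replicate 1 (0.48, adjusted p = 0.170), DMSO replicate 3 (0.61, adjusted p = 0.147), FP54 replicate 1 (0.62, adjusted p = 0.156) or FP54 replicate 2 (0.52, adjusted p = 0.106). It was lost too with no filter, with a filter at 5 RPKM and with median-ratio scaling (adjusted p = 0.0967, 0.0514 and 0.0781 from limma). The 2 ubiquitin ligases that mark class II molecules for removal from the surface gave 1 tested gene, MARCHF8, at 0.818 ± 0.204 and 1.30 ± 0.437 RPKM in MOLM-13 (SD, n = 3), with no call and over the filter only through its FP54 libraries. The other class II genes gave nothing to test. HLA-DOB was their most abundant gene with DMSO, at 0.0595 and 0.0370 RPKM in MOLM-13 and 0.0636 and 0.0884 RPKM in NB4. HLA-DQB2 and HLA-DOA were listed at 0 in all 12 libraries, and HLA-DRB3 and HLA-DRB4 were not analysed here.

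**Figure D4:**
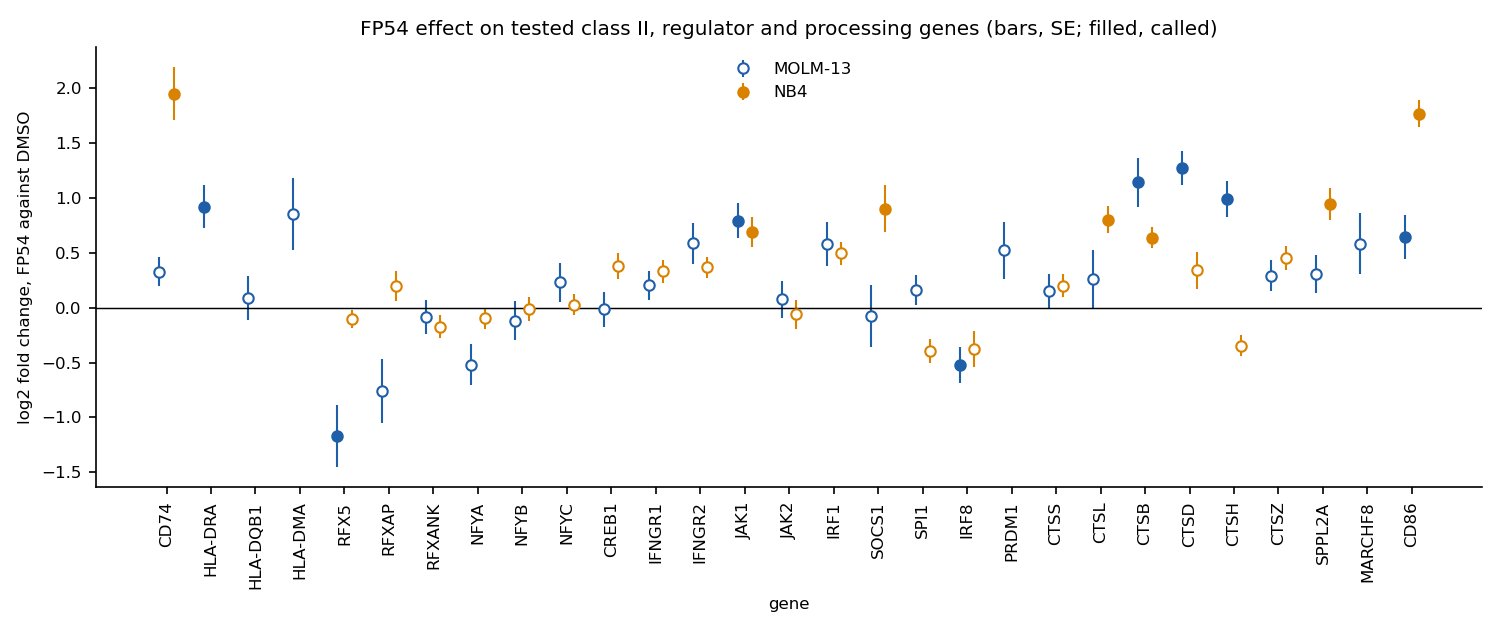
Log2 fold change of FP54 against DMSO (y axis) from limma in MOLM-13 (blue) and NB4 (orange) for the class II genes, their regulators and processing enzymes that passed the filter. Bars are standard errors and filled points are calls. CD74 and CD86 have the highest NB4 values, at 1.95 and 1.77, and RFX5 has the lowest MOLM-13 value, at −1.17.

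Most markers of other immune cells were under the filter in both lines, all but CCR7 in MOLM-13 and CD79A and CD3D in NB4. The monocyte and macrophage markers CD14, CD163 and MRC1 summed to 0.624, 0.532 and 0.533 RPKM with DMSO and 1.41, 1.49 and 1.14 RPKM with FP54 in MOLM-13. In NB4 they summed to 0.176, 0.0570 and 0.199 RPKM and to 0.705, 0.581 and 0.762 RPKM. CD14 was the most abundant of them in both lines, CD163 had 0 or 1 read in 11 of the 12 libraries, and all 3 were under the filter. These sums were higher in every FP54 library than in any DMSO library, and single genes under the filter with a read did so in 53.2% of cases in NB4 and in 10.1% in MOLM-13. The 6 dendritic cell markers summed to 0.860, 1.76 and 1.26 RPKM and to 3.80, 2.97 and 1.75 RPKM in MOLM-13, with CLEC9A and XCR1 at or near 0. CCR7 was the most abundant of them in every MOLM-13 library, but in FP54 replicate 3 it was at 0.829 RPKM and CLEC10A at 0.774. In NB4 the 6 markers summed to 0.960, 1.36 and 0.936 RPKM and to 2.52, 2.62 and 2.05 RPKM, with CLEC10A the most abundant with DMSO. CCR7 in MOLM-13 was the only one of the 6 tested in either line, with a log2 fold change of 0.70 that did not pass (limma adjusted p = 0.212), and it met the filter only through its FP54 libraries. The 4 B cell markers summed to 0.689, 0.849 and 0.957 RPKM and to 1.04, 1.14 and 0.465 RPKM in MOLM-13, with MS4A1 at 0 in 5 of the 6 libraries, and to 1.14, 1.57 and 1.51 RPKM and 1.86, 1.27 and 1.60 RPKM in NB4. CD79A in NB4 was the only one tested, at a log2 fold change of 0.05 (limma adjusted p = 0.826). CD3D of the T cell markers rose from 6.35 ± 0.528 to 10.3 ± 0.167 RPKM in NB4 (SD, n = 3, adjusted p = 0.000181 from limma), above CD74 at 1.31 and 5.29 RPKM, and CD3E was at 0.00607 and 0.156 RPKM. In MOLM-13 both were under the filter, CD3D at 0.519 ± 0.0633 and 0.206 ± 0.0371 RPKM (SD, n = 3), with FP54 lower and no overlap, and CD3E at 0.0225 and 0.0724 RPKM. The part of these markers in the CD74 values was not tested.

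Of the 7 myeloid markers, all were tested in both lines, with CSF3R called higher and MPO lower in both and ANPEP higher in NB4. Of all genes tested, 9.22% were called higher and 8.95% lower in MOLM-13, and 19.1% and 10.7% in NB4. LYZ, lysozyme, led in MOLM-13 at 489 ± 36.1 RPKM with DMSO, and MPO, myeloperoxidase, led in NB4 at 2170 ± 119 RPKM (SD, n = 3). MPO fell in both lines, by 2.06 (adjusted p = 0.000985 from limma) and by 0.96 (adjusted p = 1.28e-05) on the log2 scale. ANPEP, the surface peptidase CD13, rose in NB4 from 136 ± 15.7 to 553 ± 19.9 RPKM (SD, n = 3), and CSF3R, the G-CSF receptor, rose by 0.61 in MOLM-13 and 0.69 in NB4 on the log2 scale. In MOLM-13, CSF3R was not called without DMSO replicate 3 (0.61, adjusted p = 0.0626 from limma) or FP54 replicate 1 (0.54, adjusted p = 0.0689). With median-ratio scaling, CSF3R and CD3D in NB4 were at 0.49 and 0.50, just under the minimum fold. HGF fell in NB4 from 3.32 ± 0.839 to 0.242 ± 0.0173 RPKM (SD, n = 3), and it met the filter only through its DMSO libraries. FTO mRNA, which does not check a degrader of the protein, was at 1.01 ± 0.0767 and 1.01 ± 0.118 RPKM in MOLM-13 and at 2.73 ± 0.180 and 2.03 ± 0.0782 RPKM in NB4 (SD, n = 3), where the log2 fold change of −0.41 (adjusted p = 0.0119 from limma) was under the minimum fold.

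The genes with a profile most like CD74 over the 12 libraries were SEZ6L2, CYTH4, ADAMTSL4, RCN3 and YPEL3. Likeness was the root mean square difference of log2(RPKM + 0.1) after each gene was centred on its own mean, over 10710 genes, and it ran from 0.25 for SEZ6L2 to 0.32 for YPEL3. All 5 were high in MOLM-13, low in NB4 with DMSO and higher in NB4 with FP54, as CD74 was. CYTH4, a guanine nucleotide exchange factor, was at 51.7 RPKM in MOLM-13 with DMSO, and in NB4 it went from 1.68 to 4.35 RPKM. For CIITA the nearest genes were TMEM59, DNAAF9, CD53, TMEM260 and DUSP10, at 0.12 to 0.14. The profile of CIITA is flattened by the pseudocount in NB4, and the lines and libraries are shared by all genes compared, so this is a description.

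**Figure D5:**
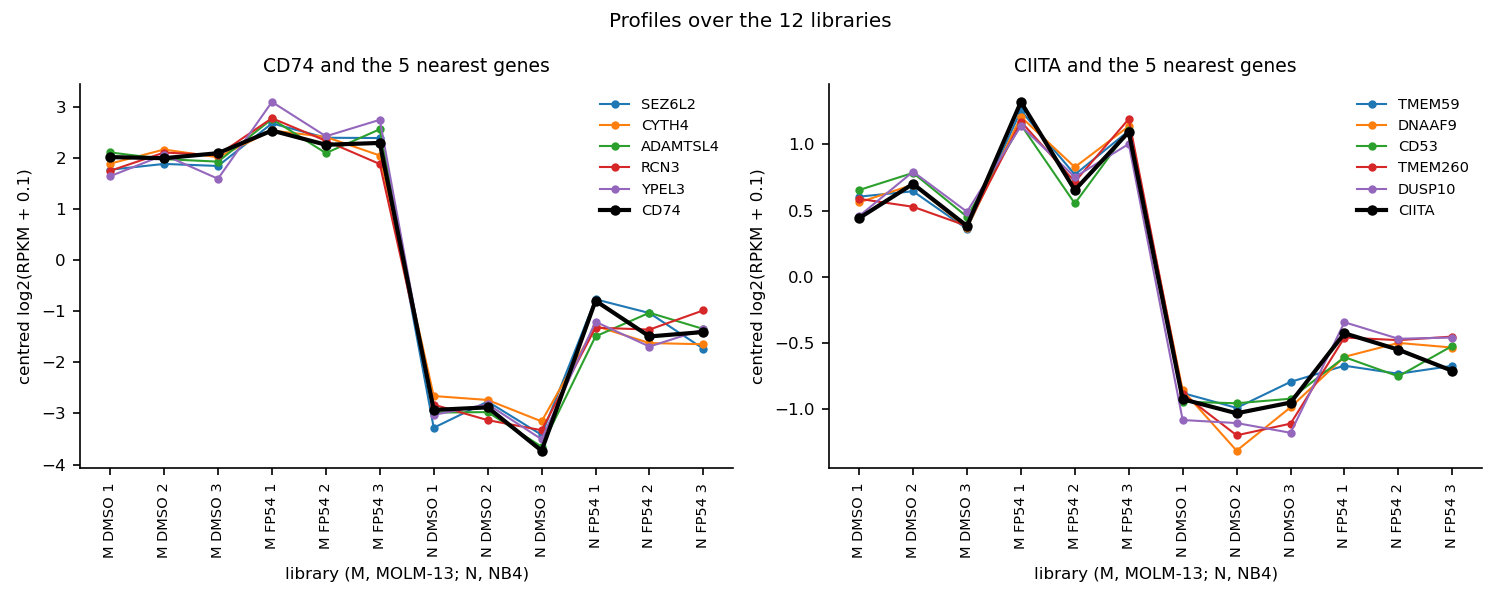
Log2(RPKM + 0.1) centred on each gene's mean (y axis) in the 12 libraries (x axis), for CD74 (left, black) and CIITA (right, black) and the 5 genes nearest to each (colours). Within each panel the lines run close together, at root mean square differences of 0.25 to 0.32 for CD74 and 0.12 to 0.14 for CIITA.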

How the data were processed

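According to the labels and the study's methods, the authors selected poly(A) RNA, made stranded libraries, trimmed reads with cutadapt 4.8, removed duplicates with Clumpify, aligned them to hg38 with STAR 2.7.11b, counted them on genes with featureCounts 2.0.3 and deposited RPKM. The NB4 table's cell line rests on the table's name. Reads were recovered as whole multiples of what 1 read is worth at GENCODE gene lengths: 98.1 to 98.9% of values under 50 reads were whole within 0.02 reads, and 20012 (MOLM-13) and 19962 (NB4) of 20330 genes were whole in all libraries.

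Log2(RPKM + 0.1) was fitted, for genes averaging 1 RPKM or more, with limma 3.58.1 (trend, R 4.3.3), with Benjamini-Hochberg adjustment over all genes. Genes under the filter had an exact two-sided permutation test. In simulated data of the same size, 86.5% (MOLM-13), 97.5% (NB4) and 91% (difference) of 200 genes changed by 1.5 were recovered. Tables were made in Python 3.11.15 (pandas 2.3.3, numpy 2.4.6) and figures with matplotlib 3.10.9.

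The members and lists were chosen with earlier results of these data known. Of the other lists, the genes called in either line and the most abundant of each were named, with the 5 genes nearest to CD74 and to CIITA. Some genes of these lists are not reported here and were left out of the lists' counts. TGFBI, LAMP5 and IFI30 were named after their values were seen. Alternatives tried were a pseudocount of 1 or 0.01, dropping the filter or raising it to 5, quantile and median-ratio scaling, the replicate block, limma-voom on recovered reads, the study's cutoff of an unadjusted p below 0.01, and each library left out. Subtraction of the olfactory receptor mean was added after seeing the data.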

Additional observations from a re-analysis of the deposited data

Results flagged for a closer look

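Among the genes named, 8 were picked out because the test of the difference itself gave FP54 effects that differ between the lines, each at an adjusted p below 0.05 from limma, where 14.2% of all genes tested did. The log2 fold change in NB4 exceeded that in MOLM-13 by 1.62 for CD74, 1.07 for RFX5, 1.13 for CD86, 1.10 for MPO and 1.44 for ANPEP. It was below that in MOLM-13 for CTSH (−1.34), CTSD (−0.93) and SPI1 (−0.56). CD74, CTSH, MPO and ANPEP kept the call under every alternative run for them, with CD74 between 1.12 and 1.79. The call of RFX5 was lost without the libraries numbered DMSO replicate 1 (0.97, adjusted p = 0.121 from limma), DMSO replicate 3 (0.90, adjusted p = 0.15), FP54 replicate 1 (0.83, adjusted p = 0.142) or FP54 replicate 2 (1.13, adjusted p = 0.0828), and with median-ratio scaling (0.89, adjusted p = 0.0691). CTSD lost it without DMSO replicate 3 (−0.96, adjusted p = 0.0600 from limma), FP54 replicate 1 (−0.80, adjusted p = 0.0927) or FP54 replicate 3 (−0.93, adjusted p = 0.0552). SPI1 lost it in each of the 6 fits without a numbered library, at adjusted p from 0.0579 to 0.143 from limma, with the filter at 5 RPKM (adjusted p = 0.0528) and under quantile normalization (−0.40, adjusted p = 0.0896), and CD86 lost it with a pseudocount of 1 (0.62, adjusted p = 0.0858) and under quantile normalization (0.70, adjusted p = 0.0508). CD86 rose in both lines, while RFX5 fell in MOLM-13 and CTSD and CTSH rose there.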

How the results depend on the processing

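With all libraries, the count of class II genes called in MOLM-13 went from 1 to 2 with no filter or with limma-voom, as HLA-DMB was then tested, and to 0 with a filter at a mean of 5 RPKM, which left CD74 alone. It ran from 0 to 2 as each library was left out. In NB4 the count was 1 in every leave-one-out fit and 2 with limma-voom, which tested CIITA. For the difference between lines it was 2 with no filter, which added HLA-DMB at 0 or 1 read per library in NB4, and 1 in every leave-one-out fit. A filter at 5 RPKM left no class II gene to test in NB4 or for the difference. FTO in NB4 passed the minimum fold under quantile normalization (−0.74) and median-ratio scaling (−0.60), and ran from −0.46 to −0.38 with libraries left out. FTO in MOLM-13 ran from −0.053 to 0.070, its sign turning without FP54 replicate 1, and HLA-DQB1 there ran from −0.023, without the same library, to 0.21.

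Genes called higher and lower went from 895 and 869 to 502 and 553 with the filter at 5 RPKM and to 743 and 569 with no filter in MOLM-13, and from 1884 and 1057 to 5339 and 1129 with no filter, 5398 and 1104 with limma-voom, 801 and 840 with the filter at 5 RPKM and 1201 and 2013 with median-ratio scaling in NB4. With libraries left out they ran from 256 to 1152 and from 213 to 1274 in MOLM-13. The fewest were 316 and 224 without DMSO replicate 3 and 256 and 213 without FP54 replicate 1, so many genes lost their call there. Differences higher and lower went from 926 and 332 to 630 and 834 with median-ratio scaling, 813 and 891 under quantile normalization, 3381 and 583 with no filter, 2286 and 489 with limma-voom and 432 and 201 with the filter at 5 RPKM, and with libraries left out they ran from 498 to 1083 and from 152 to 340.

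The replicate numbers did not pair the libraries: same-numbered deviations correlated at −0.26, −0.13 and −0.06 in MOLM-13 and −0.14, 0.07 and 0.12 in NB4. In NB4 a library did not always correlate best with its own number. In MOLM-13 the positive correlations all crossed the numbers. They were 0.59 for DMSO replicate 1 with FP54 replicate 3, 0.49 for DMSO replicate 2 with FP54 replicate 1, and 0.47 for DMSO replicate 3 with FP54 replicate 2. No fit used these crossed pairs, so a structure that such libraries share was not tested. The overlaps between groups take no account of it. With the replicate number as a block, 1 class II gene was called in each line and 1 for the difference, and IRF8 in MOLM-13 (adjusted p = 0.0807 from limma) and the differences of RFX5 (adjusted p = 0.0632) and SPI1 (adjusted p = 0.104) were not called. Calls in MOLM-13 were 743 higher and 797 lower under the block, and differences 681 and 218. Depth limits all 8 HLA genes in NB4 and, in MOLM-13, those other than HLA-DRA, HLA-DQB1 and HLA-DMA.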
